A study of Mus musculus with 8 samples.

Results

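Rab GTPases are small proteins that mark the membranes of a cell and direct vesicles between them. Each cycles between a GDP-bound form held in the cytosol and a GTP-bound form anchored on a membrane by lipid tails, where it recruits effectors such as tethers and motors. Exchange factors switch a Rab on and GTPase-activating proteins switch it off. In neutrophils, which kill bacteria by phagocytosis and by emptying preformed granules, Rab5 and Rab7 proteins are known for the maturation of phagosomes and Rab27 proteins for the release of granules. The genes described here are all those whose symbol is Rab followed by a number, with at most 1 letter and 1 further digit, so that interacting proteins such as the Rab11fip genes were left out. Of 59 such symbols in the RefSeq gene table, 56 had a row among the 24625 rows of the deposited expression table, and each of the 56 had a single row. No row was matched to Rab2b, Rab36 or Rab44.

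Lung neutrophils came from wild type mice, 6 to 12 weeks old per the labels and C57BL/6J per the study's methods, that had received Streptococcus pneumoniae (SP, 4 samples) or phosphate-buffered saline alone (PBS, 4 samples) through the trachea, in a volume of 2.3 µl for each g of weight. Cells were taken after 24 h, pulled from lung digests with magnetic beads against Ly6G, and each sample was hybridised to 1 Affymetrix Mouse Gene 1.1 ST array. Per the study, each sample came from a mouse, which the labels do not state, and the purity of the cells was examined by the authors only in samples with pneumonia. Values are log2 intensities, so a difference of 1 is 2-fold, and precision is limited by having 4 arrays in each group.

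Facts of the whole series that bear on the Rab genes were few. Over all rows, the median difference (SP minus PBS) was 0.10, and it became 0.38 when each array was centred on its own median, so the sign and call of small differences change with the scaling. Markers of neutrophils were bright on all arrays, with a list mean of 12.80 to 13.11 in PBS and 12.47 to 13.01 in SP, and of these 8 genes 3 fell and 5 did not pass the test. The neutrophil list was led by S100a8 and Retnlg. Markers of other lung cells were also present. The brightest of their lists were Tppp3 and Cdhr3 of ciliated cells, Scgb1a1 and Cbr2 of club cells, and Sftpc and Cxcl15 of type 2 cells. Emp2 and Clic5 led the list of type 1 cells, Calcrl and Cdh5 that of endothelium, and Chil3 and Car4 that of alveolar macrophages. Cd79b and Cd79a led that of B cells, and Dcn and Pdgfra that of fibroblasts. Most of these lists had lower means in SP. The list mean of ciliated cell markers ranged from 9.39 to 10.28 in PBS and from 6.50 to 7.26 in SP (10 of 10 measured genes fell), that of alveolar type 2 cells from 12.16 to 12.69 and from 10.30 to 11.77 (7 of 8 fell), and that of endothelium from 10.39 to 11.40 and from 8.74 to 9.90 (8 of 9 fell). B cell markers ranged from 7.71 to 8.63 in PBS and from 5.83 to 6.97 in SP (6 of 6 fell). The remaining lists were lower in SP for club cells (13.18 to 13.50 against 11.40 to 11.98, 3 of 3 fell) and alveolar type 1 cells (9.90 to 10.80 against 8.47 to 9.51, 4 of 6 fell), while those of alveolar macrophages (8.59 to 9.29 against 7.46 to 8.38, 4 of 8 fell and 1 rose) were mixed gene by gene and those of fibroblasts overlapped (7.54 to 8.40 against 6.91 to 8.68, 1 of 6 fell). Foxj1, Scgb3a2 and Rtkn2 had no matched row. In such bulk samples, fewer cells of a type and less RNA per cell cannot be told apart, and the part of these cells in any result below was not tested.

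**Figure D1:**
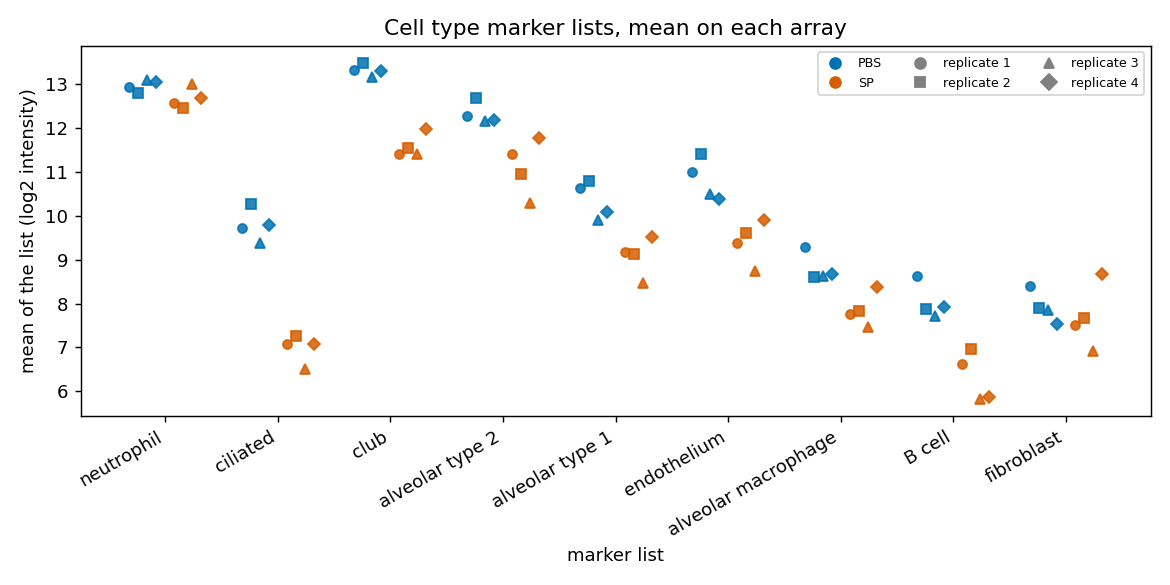
Mean log2 intensity of each list of cell type markers on each array, with the 4 PBS arrays in blue, the 4 SP arrays in orange and the replicate number given by the symbol. The lists of ciliated, club, alveolar type 2, alveolar type 1, endothelial, alveolar macrophage and B cell markers lie lower on all 4 SP arrays than on any PBS array, and the neutrophil list overlaps (12.80 to 13.11 in PBS, 12.47 to 13.01 in SP).

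PBS replicate 2 and SP replicate 3 stood apart from the other arrays of their groups and received the lowest array weights in limma (0.46 and 0.20). PBS replicate 2 had the lowest neutrophil marker mean of the PBS arrays and the highest ciliated, club, alveolar type 2, alveolar type 1 and endothelial means, and it was the lowest PBS array for 30 of the 56 Rab genes. SP replicate 3 had the highest neutrophil mean of the SP arrays and the lowest ciliated, type 2, type 1 and endothelial means, and it was the lowest SP array for 23 Rab genes and the highest for 24. With both left out, 12 Rab genes rose and 17 fell, against 11 and 15 with all arrays.

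Pneumonia was accompanied by higher levels of some Rab genes of endosomes, phagosomes and lysosomes and by lower levels of some Rab genes of secretion and of epithelial traffic. Rab4a and Rab38, also of endosomes and lysosomes, fell, however, and Rab genes of the endoplasmic reticulum and Golgi went both ways. Calls were made for 4 of 8 genes of early endosomes, 5 of 10 of late endosomes and lysosomes and 4 of 8 of secretion. These shares are near the 44.1% of all rows, and in recycling only 3 of 12 genes were called. The directions thus describe single genes and not whole compartments. Rab20, a Rab of phagosome maturation, rose 8.83-fold, and Rab15, a Rab of endosomal recycling, rose 6.68-fold. Rab25, which directs recycling to the apical surface of epithelial cells, fell from a mean of 10.15 to 7.81, and Rab3d, which sits on secretory granules, from 10.18 to 8.21. Several Rab genes of general traffic, such as Rab2a (-0.05), Rab11a (0.10), Rab11b (0.05) and Rab14 (-0.10), had small differences that did not pass the test. Of these, Rab2a and Rab11a passed as higher with centred arrays, and Rab2a passed as lower after another quantile normalization.

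Of the 56 genes, 26 (46.4%) passed an adjusted p of 0.05 by limma, 11 of them higher and 15 lower in SP, and over all rows 44.1% passed (21.5% higher and 22.6% lower). At least 2-fold differences were found for 11 genes (19.6%), 6 higher and 5 lower, against 17.6% of all rows (6.37% higher and 11.3% lower). Groups did not overlap for 27 genes (48.2%), where 49.0% of all rows did not overlap. The Rab genes as a whole therefore changed about as often as the rows of the table. Their median difference was -0.01, beside 0.10 over all rows, with 28 genes higher and 28 lower. Directions of small differences depended on the scaling, since centred arrays gave 26 higher and 10 lower calls (72.2% higher, against 42.3%), and 10 higher and 5 lower at 2-fold. Over all rows the share of calls that were higher moved from 48.9% to 77.9% under the same centring, and 64.3% of the Rab genes were then called beside 74.1% of all rows. Of the 26 calls, centring lost 5 (Rab4a, Rab6a, Rab17, Rab18 and Rab40c) and it added 15, all higher in SP. Rab18 (-0.22) and Rab40c (-0.39) were the least firm, since leaving out single arrays also ended their calls. By levels, 21 Rab genes had a mean above 10 over all arrays, while Rab26, Rab39 and Rab42 never exceeded 4.90, the highest value of the Y-linked genes Ddx3y, Kdm5d and Uty, which lay between 4.33 and 4.90 on all 8 arrays and served as a guide to background. This guide assumes female mice, and the labels do not give the sex of the mice.

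**Figure D2:**
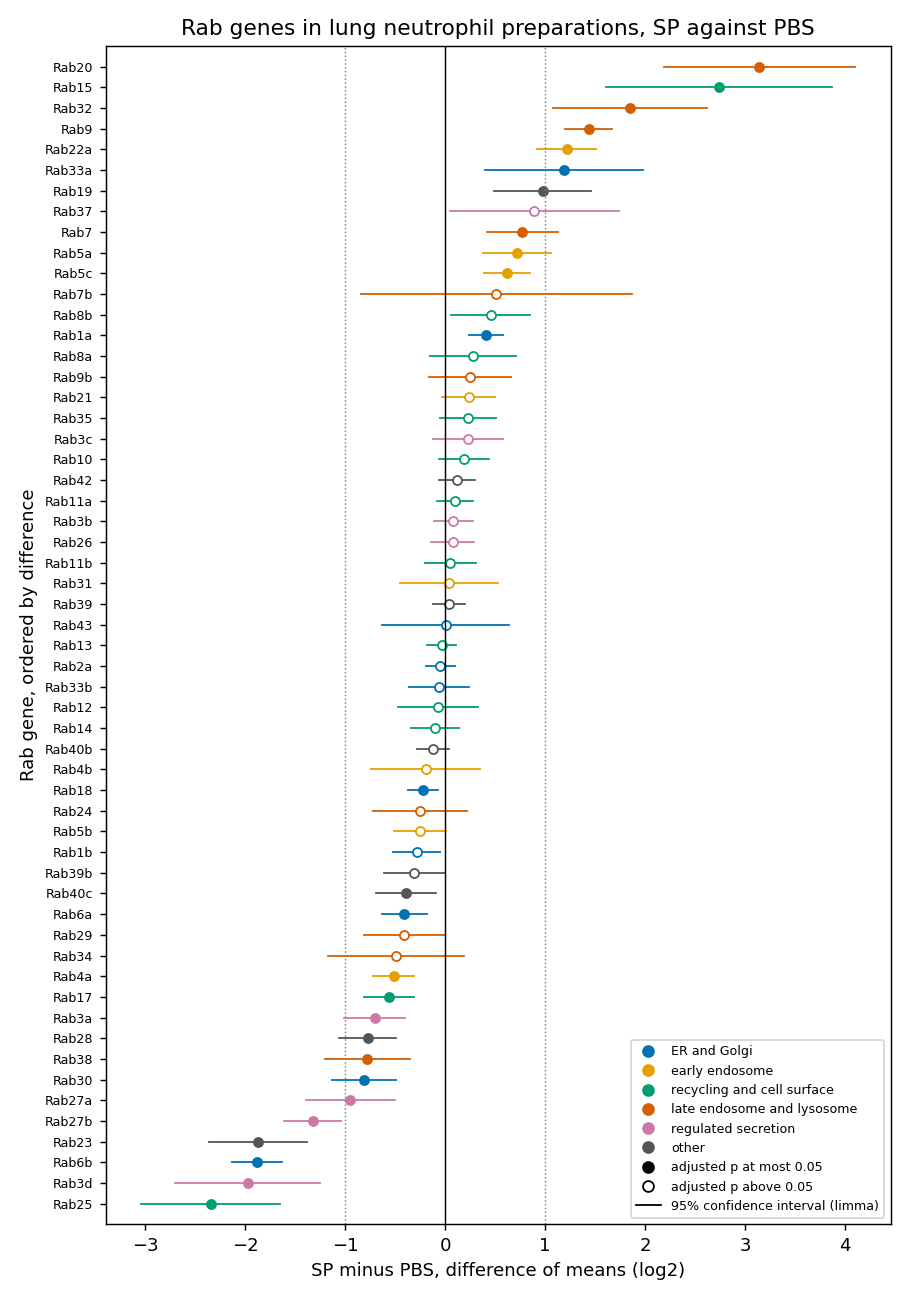
Difference of means (SP minus PBS, log2) of the 56 Rab genes with its 95% confidence interval from limma, ordered by size and coloured by the compartment of the protein; filled points passed an adjusted p of 0.05, and the dotted lines mark 2-fold. Rab20 (3.14) and Rab15 (2.74) lie at the upper end, Rab25 (-2.34) and Rab3d (-1.97) at the lower end, and the 30 open points lie between -0.49 and 0.89.

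Late endosomes, lysosomes and phagosomes were compared first, since this is where engulfed bacteria are digested. Of 10 measured genes of this class, 4 rose (Rab20, Rab32, Rab9 and Rab7), Rab38 fell, and Rab7b, Rab9b, Rab24, Rab29 and Rab34 did not pass the test. With 5 of 10 genes called, the share was near the 44.1% of all rows. Rab20 (NM_011227) lay at 8.21, 7.42, 9.53 and 9.23 on PBS replicates 1 to 4 and at 11.82, 11.69, 11.84 and 11.61 on the SP replicates. All SP values were above all PBS values, and the spread was wide in PBS only (SD 0.97 against 0.11, n = 4 each). The difference was 3.14 ± 0.42 (SE), with an adjusted p of 0.000544 by limma, and without PBS replicate 2, the lowest value, it was 2.75. Rab32 (NM_026405), which serves lysosome-related organelles, had PBS values of 9.92, 8.74, 10.43 and 10.32 and SP values of 11.80, 11.76, 11.59 and 11.66. It showed the same low value in PBS replicate 2, and the groups did not overlap. Its rise was 3.60-fold (difference 1.85 ± 0.34, adjusted p = 0.00274 by limma), with a difference of 1.48 without that array. Rab9 (NM_019773), known for transport from late endosomes back to the Golgi, was the most even of the class. Its values were 9.09, 9.23, 9.24 and 9.26 in PBS and 10.77, 10.61, 10.79 and 10.39 in SP, a 2.71-fold rise (adjusted p = 2.58e-05 by limma).

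Rab7 (NM_001293652), the Rab of late endosomes and of their fusion with lysosomes, was among the 5 brightest Rab genes by the mean over all arrays and rose by less than 2-fold. PBS arrays read 11.49, 11.03, 11.69 and 11.66, and SP arrays 12.23, 12.18, 12.44 and 12.11, a 1.71-fold difference (adjusted p = 0.00455 by limma). The groups did not overlap. Rab7b could not be called (8.34 ± 0.53 in PBS and 8.86 ± 1.28 in SP, SD, n = 4), because SP replicate 3 lay at 6.94 and the other SP arrays between 9.37 and 9.59. Without SP replicate 3 it passed the test. Rab38, a close relative of Rab32 that is known from melanosomes and from lamellar bodies of alveolar type 2 cells, fell 1.71-fold from a dim 6.30 ± 0.25 to 5.52 ± 0.33 (adjusted p = 0.0105 by limma). Its call was lost after another quantile normalization, and alveolar type 2 markers were lower in the same samples.

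Early endosomes receive newly engulfed cargo and sort it. Of 8 genes, 3 rose (Rab22a, Rab5a and Rab5c), Rab4a fell, and Rab4b, Rab5b, Rab21 and Rab31 did not pass the test. Here too the share called (4 of 8) was near the 44.1% of all rows. Rab22a (NM_024436), which acts in early endosomes and in recycling from them, lay at 9.14, 8.79, 9.32 and 8.96 in PBS and at 10.29, 10.42, 10.09 and 10.27 in SP. The groups were separated by more than their ranges, at a 2.32-fold difference (1.22 ± 0.13, adjusted p = 0.000162 by limma). Rab5a (NM_025887), the Rab of early endosomes and young phagosomes, read 10.29, 9.76, 10.39 and 10.33 in PBS and 10.81, 11.01, 11.04 and 10.79 in SP. Its 1.65-fold rise (adjusted p = 0.00492 by limma) stood beside a 1.54-fold rise of Rab5c (0.00154), while the third Rab5 gene, Rab5b, lay at 10.75 ± 0.20 and 10.49 ± 0.11 and did not pass the test (0.0961). Rab31 was bright in both groups and its groups overlapped, with 11.41, 11.22, 11.89 and 11.75 in PBS and 11.42, 11.27, 12.13 and 11.63 in SP. Rab4a, which drives fast recycling, was dim and fell 1.43-fold (5.66 ± 0.10 to 5.14 ± 0.12, adjusted p = 0.00227 by limma), and with centred arrays that call was lost.

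Recycling and delivery to the cell surface gave the largest contrast within a class, between Rab15 and Rab25. Of 12 genes Rab15 rose, Rab25 and Rab17 fell, and 9 did not pass the test (25.0% called, beside 44.1% of all rows). Rab15 (NM_134050) had PBS values of 7.88, 8.42, 7.71 and 8.08 and SP values of 11.40, 11.65, 9.17 and 10.82. SP replicate 3 was far below the other SP arrays, though still above every PBS array. Its difference of 2.74 ± 0.49 (adjusted p = 0.00268 by limma) was 3.27 without that array. Rab25 (NM_016899) lay at 10.17, 10.27, 9.90 and 10.27 in PBS and at 8.15, 7.58, 6.98 and 8.53 in SP, a 5.08-fold fall (adjusted p = 0.000466 by limma). No SP value came within 1 log2 unit of a PBS value, and the lowest SP value was on SP replicate 3, which also had the lowest ciliated, type 1 and type 2 marker means. Rab17, a second Rab of polarised epithelium, was near background and fell 1.47-fold (5.18 ± 0.19 to 4.62 ± 0.09, adjusted p = 0.00370 by limma), and its call was lost with centred arrays.

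The surface Rabs that most cells use were bright and had differences under 2-fold. Rab8b and Rab8a, which carry vesicles to the plasma membrane, were among the 5 brightest Rab genes. Rab8b read 11.77, 11.53, 12.22 and 12.14 in PBS and 12.36, 12.22, 12.66 and 12.25 in SP. The lowest SP value was level with the highest PBS value, and the difference of 0.46 did not pass the test (adjusted p = 0.0600 by limma). Rab8b did pass with the replicate block (adjusted p = 0.0319), a robust prior with trend (0.0489) and without PBS replicate 3 (0.0388), and its difference was 0.22 after another quantile normalization (adjusted p = 0.239). Rab8a read 11.52, 11.02, 11.92 and 11.88 in PBS and 11.89, 11.91, 11.81 and 11.86 in SP, with overlapping groups (adjusted p = 0.235). Rab14, found on early phagosomes and the Golgi, lay at 11.14, 11.13, 11.09 and 11.13 in PBS and at 11.03, 11.24, 10.74 and 11.08 in SP. Rab11a, the main Rab of recycling endosomes, lay at 10.83, 10.65, 10.88 and 10.82 in PBS and at 10.90, 10.92, 10.96 and 10.81 in SP. Neither passed the test, and the 95% intervals of their differences ran from -0.34 to 0.14 for Rab14 and from -0.08 to 0.28 for Rab11a, so changes of 2-fold lie outside them. With centred arrays Rab8a (0.56), Rab8b (0.74) and Rab11a (0.38) passed the test as higher.

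**Figure D3:**
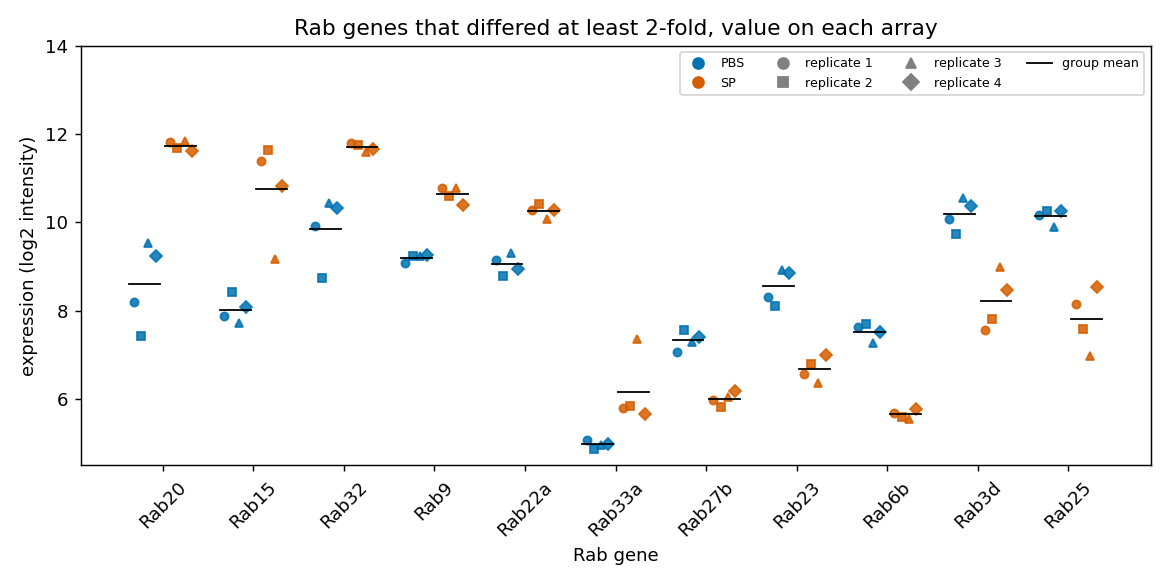
Expression (log2 intensity) on each array of the 11 Rab genes that passed an adjusted p of 0.05 with at least a 2-fold difference, PBS in blue and SP in orange, with symbols for the replicate number and lines for the group means. No gene has overlapping groups, Rab20 and Rab32 are low on PBS replicate 2 (7.42 and 8.74), and Rab15 is low (9.17) and Rab33a high (7.35) on SP replicate 3.

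Regulated secretion was the only one of the 6 classes in which no member rose without further scaling, although with centred arrays Rab37, Rab3b, Rab3c and Rab26 passed as higher. Of 8 measured genes, 4 fell (Rab3d, Rab27b, Rab27a and Rab3a), and Rab37, Rab3b, Rab3c and Rab26 did not pass the test. Over all rows 44.1% were called and 22.6% were called lower. Whether a class of 8 genes departs from these shares was not tested. Rab3b, Rab3c and Rab26 were near background, with means over all arrays of 4.93, 4.75 and 4.69 (Y-linked genes 4.33 to 4.90). Their differences were 0.08, 0.23 and 0.07, and 0.36, 0.51 and 0.36 with centred arrays. At such levels these genes say little about the direction of the class. Rab27a (XM_006510780), which docks and releases granules in neutrophils, lay at 10.95, 10.48, 11.47 and 11.22 in PBS and at 9.93, 10.09, 10.17 and 10.13 in SP. The groups did not overlap, and the fall was 1.93-fold (adjusted p = 0.00512 by limma). Rab27b (NM_001082553), its relative on secretory vesicles, was dimmer, at 7.06, 7.57, 7.29 and 7.41 in PBS and 5.99, 5.82, 6.05 and 6.18 in SP. It fell 2.50-fold with little spread (adjusted p = 9.90e-05 by limma). Rab3d (NM_031874) read 10.07, 9.73, 10.56 and 10.37 in PBS and 7.57, 7.82, 8.98 and 8.47 in SP, a 3.93-fold fall (adjusted p = 0.00149 by limma). Rab3a, best known from synaptic vesicles, fell 1.63-fold (6.56 ± 0.27 to 5.85 ± 0.10, adjusted p = 0.00345). Rab37 (NM_001163753), a Rab of secretory granules, pointed the other way without passing the test (adjusted p = 0.0789 by limma). Its values were 6.96, 6.01, 7.53 and 7.38 in PBS and 7.53, 7.77, 8.63 and 7.52 in SP, so that the groups overlapped slightly. It passed with centred arrays (difference 1.17, adjusted p = 0.0195), after another quantile normalization (1.19, adjusted p = 0.0450) and with the replicate block (0.89, adjusted p = 0.0488). The difference of Rab37 was 0.57 without PBS replicate 2, 0.43 with array weights (adjusted p = 0.158) and 0.32 without both PBS replicate 2 and SP replicate 3 (adjusted p = 0.153).

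Transport between the endoplasmic reticulum and the Golgi changed in both directions. Of 10 measured genes, Rab33a and Rab1a rose, Rab6b, Rab30, Rab6a and Rab18 fell, and Rab1b, Rab2a, Rab33b and Rab43 did not pass the test. In this class 60.0% were called, beside 44.1% of all rows. Rab6b (NM_173781), the form of Rab6 known mainly from neurons, lay at 7.64, 7.69, 7.26 and 7.53 in PBS and at 5.68, 5.60, 5.56 and 5.78 in SP. Rab6a (NM_001163663), the widely used form, lay at 11.60, 11.46, 11.79 and 11.63 in PBS and at 11.22, 11.05, 11.36 and 11.22 in SP. Both fell without overlap, by 1.88 and 0.41 on the log2 scale, and the smaller fall was not called with centred arrays. Rab33a (NM_011228) rose 2.28-fold (adjusted p = 0.0239 by limma), but its PBS values of 5.08, 4.87, 4.96 and 4.97 were near background. SP values were 5.80, 5.84, 7.35 and 5.66, so 1 array, SP replicate 3, carried much of the difference, which was 0.80 without it. The call of Rab33a was lost without PBS replicate 2 (adjusted p = 0.0542 by limma), without PBS replicate 4 (0.0524) and under the methods' test (0.0565). Rab1a, which with Rab1b carries cargo from the endoplasmic reticulum to the Golgi, was among the 5 brightest Rab genes and rose slightly, from 11.60, 11.44, 11.66 and 11.53 to 11.96, 11.93, 12.05 and 11.93 (adjusted p = 0.00282 by limma). This call of Rab1a was lost after another quantile normalization (difference 0.17, adjusted p = 0.0572).

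Among the 8 genes of other or less defined function, Rab19 rose, Rab23, Rab28 and Rab40c fell, and Rab39, Rab39b, Rab40b and Rab42 did not pass the test. The share called (4 of 8) was near the 44.1% of all rows. Rab23 (NM_001159729), known as a brake on Hedgehog signalling and from primary cilia, lay at 8.32, 8.11, 8.92 and 8.86 in PBS and at 6.56, 6.80, 6.37 and 6.99 in SP. Its 3.66-fold fall (adjusted p = 0.000254 by limma) left a gap of more than 1 log2 unit between the groups. Rab28, also linked to cilia, fell 1.71-fold (8.68 ± 0.14 to 7.91 ± 0.21, adjusted p = 0.00146). Ciliated cell markers were lower in the same SP samples, but single arrays did not always go with them. Rab23 was lowest in PBS on replicate 2 (8.11), the PBS array with the highest ciliated mean. In SP it was lowest on replicate 3 (6.37), the array with the lowest ciliated mean, where Rab28 was highest of the SP arrays (8.08). The part of ciliated cells was not tested. Rab19 rose 1.97-fold, from 7.15 ± 0.24 to 8.13 ± 0.42 (adjusted p = 0.00655 by limma), just under the 2-fold threshold.

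Short motifs of factors known from infection and from lysosome genes were searched in the promoter windows of RefSeq (GRCm38.p6), which run from 250 bases before to 50 bases after a gene's start. Windows existed for 47 of the 56 genes, 59 windows in all. Both strands were searched. The core of the interferon-stimulated response element was found in 1 of these windows (3.44% of all 32851 windows held it), an NF-κB consensus in none (0.41% of all), and TCACGTGA, a palindrome recognised by lysosome gene regulators of the TFEB family, in 3 (0.97% of all). Rab19 carried 2 overlapping matches of the first motif starting 10 bases before its start, shown here because it was the only Rab promoter with one, with the matched 16 bases in capitals (chr6:39381336-39381365, plus strand).
Rab19: gcccttgTTTCCCTTTCGCTTTCtctgtcc
The matches of TCACGTGA lay in the windows of Rab5a, Rab21 and Rab24, and the motif is in capitals in those of Rab5a (chr17:53479128-53479155, plus strand) and Rab21 (chr10:115315605-115315632, minus strand).
Rab5a: cccggggatgTCACGTGActtcggcccc
Rab21: cccaccgcggTCACGTGAcgaggggtgt
Of these genes, Rab19 and Rab5a rose, whereas Rab21 (difference 0.24) and Rab24 (-0.25) did not pass the test, and a match describes letters in a window and is not a binding site.

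To see whether related Rab genes changed by different amounts, 15 pairs fixed by family were compared. For each pair, the log2 difference between both genes was taken on every array. The arrays were then rearranged between SP and PBS in all 70 ways (exact permutation, two-sided), and the smallest p this allows is 0.0286. It was reached by 7 pairs, whose per-array differences did not overlap between groups, but the adjusted p over the 15 pairs was 0.0612 for each, so none passed the correction in these exact tests. With this smallest p, a pair could pass only if more than 7 pairs reached it, however wide its own gap. The lack of a call is thus a limit of the design and does not show that related genes changed alike. The widest gap was between Rab32 and Rab38, whose changes differed by 2.63 ± 0.51 (SE). The other pairs at the smallest p were Rab6a over Rab6b (1.47 ± 0.18, but 0.96 after another quantile normalization), Rab33a over Rab33b (1.25 ± 0.47), Rab9 over Rab9b (1.18 ± 0.17), Rab22a over Rab31 (1.17 ± 0.28), Rab5a over Rab5b (0.98 ± 0.13) and Rab1a over Rab1b (0.69 ± 0.08). Rab3d fell by more than Rab3a, with a gap of 1.27 ± 0.43 that did not reach the smallest p (exact p = 0.0571, adjusted p = 0.107). Rab9b was near background (4.55 ± 0.07 in PBS). Without SP replicate 3, the gap of Rab33a over Rab33b was 0.79. The change of Rab27b differed from that of Rab27a by 0.37 ± 0.29, within the spread of the arrays (exact p = 0.229, adjusted p = 0.312). Rab11a and Rab11b (0.05 ± 0.08) and Rab5a and Rab5c (0.10 ± 0.10) also gave small differences of change. Whether probes of related genes cross-hybridised was not tested.

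**Figure D4:**
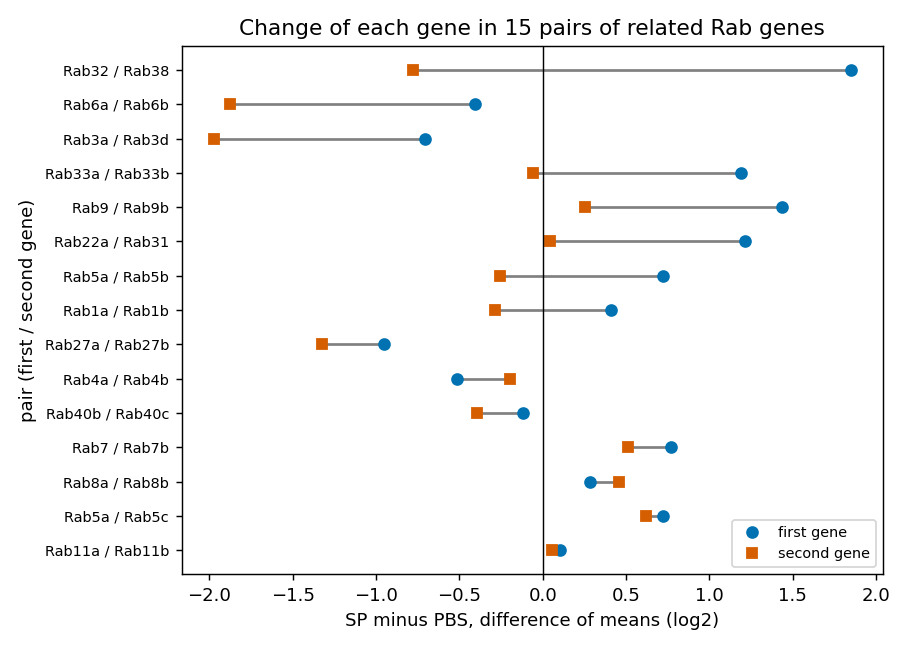
Difference of means (SP minus PBS, log2) of both genes of 15 related pairs, joined by a line and ordered by the gap. Rab32 (1.85) and Rab38 (-0.78) lie farthest apart, and Rab11a (0.10) and Rab11b (0.05) nearly coincide.

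Proteins that act on Rabs were compared by lists set from their roles, with earlier results of these data known. Of 118 measured genes, 80 (67.8%) passed the test, 29 higher and 51 lower, beside 44.1% of all rows, and 34 differed at least 2-fold (28.8%, beside 17.6%). Centred arrays changed the split to 43 higher and 37 lower (53.8% higher against 36.3%), and another quantile normalization to 37 and 41 (47.4% higher). With centred arrays the share called was 67.8% of these genes and 74.1% of all rows, so that a share above that of all rows was not seen under that scaling. The median difference of these genes was -0.24.

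Of 7 measured proteins that load Rabs onto membranes, 5 fell, 2 did not pass the test and none rose (71.4% called, median difference -0.30), with Chml, an escort protein for the lipid modification of Rabs, 2.11-fold lower (adjusted p = 2.56e-05 by limma). Exchange factors went both ways, with 11 of 36 higher and 10 lower. Ric1, part of an exchange factor of Rab6, rose 2.69-fold and Dennd4b, of the DENN family of exchange factors, 2.21-fold. Rin2, which activates Rab5, fell 2.20-fold and Sbf2 fell 2.18-fold. Of the factors that switch Rabs off, 9 of 35 were higher and 17 lower. Tbc1d2, which acts on Rab7, rose 4.69-fold, Tbc1d10a, which acts on Rab27a, 3.17-fold and Rabgap1 2.68-fold. Tbc1d30 (5.43-fold), Tbc1d10c (2.88-fold) and Tbc1d4, which acts on Rabs of glucose transporter vesicles (2.80-fold), were lower.

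Of 37 measured effectors, 8 were higher and 17 lower, and 15 differed at least 2-fold (40.5%). Rilpl2, a relative of the Rab7 effector Rilp, rose 6.61-fold, from 8.23, 7.60, 9.01 and 8.63 in PBS to 11.36, 11.06, 11.22 and 10.73 in SP. Eea1, the tether that Rab5 recruits to early endosomes, rose 4.74-fold, from 8.46, 8.19, 8.43 and 8.38 to 10.85, 10.90, 10.48 and 10.20 (adjusted p = 2.54e-05 by limma). Myo5a, an actin motor that Rab27a and other Rabs use, rose 2.68-fold. The other motors of its family moved the opposite way, with Myo5c 9.95-fold and Myo5b 5.05-fold lower, and Exph5, an effector of Rab27 proteins, was 5.56-fold lower. Myo5c had its highest value (10.80) on PBS replicate 2 and its lowest (5.93) on SP replicate 3. These arrays had the highest and lowest means of ciliated, type 2, type 1 and endothelial markers alike. The part of any of these cells was not tested. Unc13d, chosen after its values were seen because it works with Rab27a in granule release, was 1.75-fold lower (adjusted p = 0.00219 by limma). Of the kinases of Rabs and the phosphatase that opposes them, Lrrk2, a kinase of Rab8 and Rab10, had means of 11.29 ± 0.21 in PBS and 10.10 ± 0.48 in SP, a 2.27-fold fall (adjusted p = 0.00396 by limma). Ppm1h, the phosphatase, had means of 7.79 ± 0.08 and 9.14 ± 0.45, a 2.55-fold rise (adjusted p = 0.00102 by limma).

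**Figure D5:**
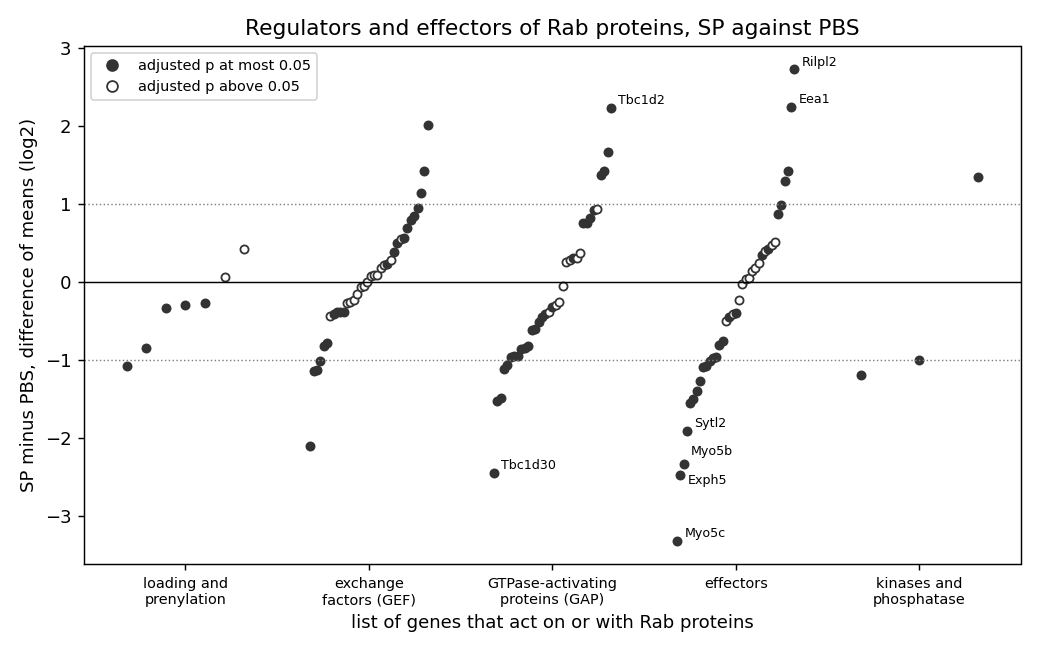
Difference of means (SP minus PBS, log2) of each measured gene of 5 lists of proteins that act on or with Rabs, ordered within a list; filled points passed an adjusted p of 0.05 and the dotted lines mark 2-fold. Rilpl2 (2.73), Eea1 (2.24) and Tbc1d2 (2.23) are the highest points and Myo5c (-3.32) the lowest.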

How the data were processed

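Messenger RNA of 8 samples was measured on Affymetrix arrays. The deposited values are log2 intensities. Per the study's methods, the authors obtained them by robust multi-array averaging, with corrections for probe GC content and sequence, quantile normalization, and summarization over their own assignment of probes to genes (tools named in the submitters' processing notes: Affymetrix Expression Console, RMA and Partek). Quantile normalization brings arrays towards a common distribution, so values are relative. Medians of the deposited arrays still differed, from 6.06 to 6.20 in PBS and from 5.78 to 5.91 in SP. Median centring takes this difference out. Row accessions were matched without versions to RefSeq symbols of GRCm38.p6 (19915 of 24625 rows). The genome build of the values is not given in the sources used here, so no gene coordinates are printed for them. SP was compared with PBS over all rows with limma (3.58.1, R 4.3.3; lmFit, eBayes, no covariates, two-sided, Benjamini-Hochberg), which was tested on simulated data. Thresholds were an adjusted p of 0.05 and 2-fold. Tables and figures used Python 3.11.15. Symbols were grouped in 6 classes by compartment.

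The members, classes, lists and pairs were chosen with earlier results of these data known. Values per array are given for genes with a 2-fold call, the 5 brightest, Rab6a and Rab6b, and Rab5a, Rab7, Rab11a, Rab14, Rab20, Rab27a and Rab37 (Rab44, also in the rule, had no matched row). In each list of regulators, up to 3 rises and 3 falls at 2-fold were named, and in each marker list the 2 brightest genes. Some regulators that met this rule are not reported here. Alternatives comprised the methods' one-way test of variance, a robust prior with trend, the replicate block, array weights, median centring, another quantile normalization, leaving out dim rows, 1 row per symbol, limma treat and leaving out each sample. Protein sequences and the microRNA arrays were not used here. Replicate numbers did not pair the samples.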

Additional observations from a re-analysis of the deposited data

Results flagged for a closer look

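Single arrays were compared with the other 3 of their group for every Rab gene (112 groups), by the gap to the nearest value over the whole range, and 9 passed Dixon's 95% critical value. Chance gives about 1 in 20 groups. SP replicate 3 was high for Rab10 (11.76, the others 11.36 to 11.41), Rab2a (11.58, the others 11.51 to 11.52), Rab33a (7.35, the others 5.66 to 5.84) and Rab9b (5.39, the others 4.59 to 4.61), and low for Rab7b (6.94, the others 9.37 to 9.59). PBS replicate 2 was high for Rab3a (6.96, the others 6.40 to 6.46) and low for Rab5a (9.76, the others 10.29 to 10.39). SP replicate 1 was low for Rab1b (11.18, the others 11.32 to 11.34) and PBS replicate 1 for Rab9 (9.09, the others 9.23 to 9.26). The gaps of Rab1b, Rab2a and Rab9 were under 0.2 log2 units.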

How the results depend on the processing

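Counts kept within 1.5 times of those reported, except as follows. Centring arrays on their medians gave 26 higher calls of Rab genes (11 reported), 10 at 2-fold (6 reported) and a median difference of 0.27 (-0.01 reported). Counts of regulators stayed within that limit, but their majority turned with centring, from 29 higher and 51 lower to 43 higher and 37 lower. Asking for differences significantly above 2-fold (limma treat) left 2 higher and 3 lower Rab genes, and 5 higher and 6 lower regulators. Without any 1 sample, higher calls ranged from 10 to 13, lower calls from 13 to 15, 2-fold rises from 5 to 7, 2-fold falls from 5 to 6, the median from -0.04 to 0.04, and calls of regulators from 22 to 35 higher and 42 to 50 lower. Among genes given per array, signs turned only where there was no call. Rab11a was at -0.089 after another quantile normalization, Rab14 at 0.18 with centred arrays, and Rab31 at -0.22 with array weights, -0.20 after another quantile normalization, and from -0.13 (without SP replicate 3) to 0.16 (without SP replicate 2) with 1 sample left out, also below 0 without PBS replicate 1 (-0.0099) and PBS replicate 2 (-0.07), and -0.24 without both PBS replicate 2 and SP replicate 3, an alternative chosen after seeing the data. Among other called genes, Rab18 was at 0.06 with centred arrays. The cause was not tested. Samples with the same number did not deviate together (r = 0.02, 0.03, 0.35 and -0.27 over rows), so the numbers do not pair them. With the replicate block, 13 Rab genes were higher and 13 lower. No Rab symbol had a further row, so the choice of row could not be varied. For the pairs of genes, 147 of 165 values under other scalings or with arrays left out moved by less than the spread between replicates and 18 moved by more. With 4 arrays a group, the difference of 0.51 in a variable gene such as Rab7b could not be called.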
